A study of Mus musculus with 8 samples.

Results

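The genes described here are 10 radial glia identity genes, Pax6, Sox2, Emx2, Lhx2, Vim, Nes, Fabp7, Slc1a3, Hopx and Tnc, chosen by name from the 23284 gene symbols that were counted. All 10 were measured by RNA-seq of the dorsal cortex of C57BL/6 embryos at E15.5, in 4 libraries labelled WT and 4 labelled ErbB4-/-. WT embryos carry both wild type alleles of ErbB4, a receptor tyrosine kinase for neuregulins, and ErbB4-/- embryos are homozygous for its knockout. The paper notes that embryos without ErbB4 in the germline die early from heart defects. Knockout studies therefore used mice rescued by ErbB4 expressed in the heart under the α-MHC promoter. It does not state whether the embryos sequenced here carried that transgene, so the groups may also differ in it. The lines were maintained and bred as homozygotes. The meninges and the ganglionic eminences were cut away before the RNA was taken. Nothing in the labels states whether the embryos of 1 genotype came from separate litters, so p-values measure the spread between these libraries only.

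Radial glia are the neural stem cells of the embryonic cortex. Their cell bodies line the ventricle and a long fibre reaches the outer surface, along which new neurons migrate. They divide to renew themselves and to make intermediate progenitors and neurons, and late in gestation and after birth they turn to making glia. Transcription factors set their cortical stem cell state (Pax6, Sox2, Emx2, Lhx2) and intermediate filaments build the fibre (Vim, Nes). Other genes mark their glial character (Fabp7, Slc1a3). In primates Hopx marks the basal radial glia that have left the ventricular surface, and Tnc is a matrix protein made by radial glia.

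None of the 10 genes passed the test between genotypes, at an adjusted p under 0.05 in edgeR's quasi-likelihood test over 14696 genes. The adjusted p of the members was from 0.81 to 0.942, and 4 of all genes tested passed (0.0272%). DESeq2 and limma-voom also called 0 members at that threshold. In fold, Pax6, Nes and Vim had the lowest log2 fold changes of ErbB4-/- over WT, at -0.27, -0.23 and -0.19, and Tnc the highest, at 0.39. These 4 genes had an unadjusted p under 0.05, 4 of 10 against 5.53% of all genes tested. The members were chosen with earlier results of these data known, so this count is a description only. For the 3 lower genes the background in that direction was 2.52%, and for the 1 higher gene it was 3.00%. No member had all ErbB4-/- libraries below or all above the WT libraries, where 1.48% of all genes were separate and lower and 1.86% were separate and higher. Of the 10 log2 fold changes, 7 were below 0 and 3 above, with a median of -0.09, and over all genes 50.8% were below 0 with a median of -0.0022. In bulk tissue, fewer radial glia and less RNA of a gene per cell cannot be told apart.

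Each library held between 28205703 and 48871480 counted reads, and the members took 0.232% to 0.284% of them. The targeted gene did not separate the labels, since Erbb4 had 8.99 to 25.3 CPM (counts scaled to a common library size by edgeR's TMM method) in WT and 20.7 to 24.6 CPM in the libraries labelled ErbB4-/-, where edgeR gave a log2 fold change of 0.28 (adjusted p = 0.812). The lowest Erbb4 level was that of WT replicate 1, without which the value was 0.06, and without WT replicate 3 it was 0.48. Counts per gene do not show which exons were read, so this value does not check the knockout. WT replicate 1 stood apart on the first principal component of all genes (30.6% of the variance), at -38.9 where the other 7 libraries lay at -6.07 or above. In that library the deviation of a gene from its mean was negatively related to its length (Spearman's rho across 14392 genes of -0.525, against 0.0328 to 0.202 in the others, and genes are not independent replicates). Xist, expressed from the inactive X chromosome, had 983, 1613 and 1687 CPM in WT replicates 1 to 3, but 3.48 in WT replicate 4 and 2.70 to 3.82 in the ErbB4-/- libraries. The Y-linked gene Ddx3y had the opposite pattern, at 0.257 to 0.495 CPM in WT replicates 1 to 3, 76.4 in WT replicate 4 and 78.7 to 80.9 in ErbB4-/-. By these genes WT replicates 1 to 3 differ in sex from the other 5 libraries, and WT replicate 4 alone separates sex from genotype. With Xist as a covariate, no member had an unadjusted p under 0.05, and each member's value is given below. That fit rests on WT replicate 4 to separate the 2, so its p-values cannot tell a difference by sex from one by genotype. Its log2 fold change was -0.22 against -0.27 without the covariate for Pax6, and -0.23 against -0.19 for Vim. For Nes it was -0.23 in both fits, and for Tnc 0.43 against 0.39.

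Promoter windows are shown for the 4 genes with an unadjusted p under 0.05, from RefSeq on GRCm38.p6, each the 250 bases before the first annotated start site on the gene's strand. Capitals mark matches, on either strand, to one of 7 short motifs. The letters TGGGAA stand for RBPJ, the effector of Notch signalling, and ATGCAAAT for the octamer of POU factors. For SOX factors the motif is ACAAAG, or in a second form ACAATG, and for homeodomain factors it is TAATTA. The motif of the NFI family is TTGGCA, and that of the TATA box is TATAAA. A match describes letters and not a bound site. The windows lie at chr2:105668646-105668895 (plus strand) for Pax6, chr2:13574061-13574310 (plus) for Vim, chr3:87970843-87971092 (plus) for Nes and chr4:64047016-64047265 (minus) for Tnc.
Pax6: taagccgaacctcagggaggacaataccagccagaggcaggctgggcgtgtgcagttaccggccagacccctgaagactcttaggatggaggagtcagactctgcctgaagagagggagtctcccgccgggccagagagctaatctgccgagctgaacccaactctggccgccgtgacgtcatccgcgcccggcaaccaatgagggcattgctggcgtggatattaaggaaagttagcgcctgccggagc
Vim: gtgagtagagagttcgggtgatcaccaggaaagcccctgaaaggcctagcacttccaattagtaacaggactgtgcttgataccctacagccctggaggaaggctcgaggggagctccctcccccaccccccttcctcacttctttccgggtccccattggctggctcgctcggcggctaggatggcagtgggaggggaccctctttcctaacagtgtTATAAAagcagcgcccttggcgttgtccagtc
Nes: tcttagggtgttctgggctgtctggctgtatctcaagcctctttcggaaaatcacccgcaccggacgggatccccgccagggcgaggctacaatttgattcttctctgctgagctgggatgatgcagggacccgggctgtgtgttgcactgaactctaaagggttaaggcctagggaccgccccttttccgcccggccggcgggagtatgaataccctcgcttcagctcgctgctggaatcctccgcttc
Tnc: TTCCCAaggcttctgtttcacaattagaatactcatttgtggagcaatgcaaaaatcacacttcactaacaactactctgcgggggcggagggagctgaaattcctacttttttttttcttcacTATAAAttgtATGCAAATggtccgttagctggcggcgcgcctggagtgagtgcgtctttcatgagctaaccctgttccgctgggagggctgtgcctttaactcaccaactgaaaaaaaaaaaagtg

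The window of Vim held a TATAAA 32 bases before the start, and 12.4% of the 32851 mouse promoter windows of this length hold that motif. The Tnc window held 3 matches. The match to TGGGAA lay on the strand opposite to the gene, in the far end of the window. The others were TATAAA 126 bases before the start and ATGCAAAT 116 bases before it. TGGGAA occurs in 21.6% of all windows and ATGCAAAT in 1.6%. The Pax6 and Nes windows held none of the 7. The 10 members have 14 windows, of which the 2 of Tnc share most of their bases. TGGGAA was found in 6 windows (of Emx2, Lhx2, Fabp7 and Tnc), TATAAA in 4 (of Vim, Slc1a3 and Tnc) and ACAAAG in 2 (of Sox2, and the second start site of Pax6). ATGCAAAT was found in 2 windows, both of Tnc, TTGGCA in 1, at the second start site of Tnc, and ACAATG and TAATTA in none. The shares over all windows were 16.5% for ACAAAG, 12.3% for TTGGCA, 10.7% for ACAATG and 4.84% for TAATTA.

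Levels can be set against each other only per length. Divided by the union of annotated exons in kilobases, Fabp7 was the most abundant at 438 ± 63.1 CPM per kilobase (SD, n = 8), followed by Vim at 287 ± 30.7 and Lhx2 at 113 ± 7.48. The ranges of these 3 did not overlap with each other over the libraries. Sox2 (58.6 ± 5.64) and Nes (52.3 ± 6.54) overlapped, and Emx2 (21.5 ± 1.49) overlapped with Slc1a3 (18.9 ± 0.961), as Slc1a3 did with Tnc (14.6 ± 2.93). Hopx (6.78 ± 1.08) and Pax6 (4.69 ± 0.608) were the lowest and overlapped. Part of this order rests on the length that is used. The union of Pax6 exons is 19833 nucleotides long, and with the longest transcript of 8401 nucleotides Pax6 was at 11.1 CPM per kilobase, above Hopx at 7.71, with overlapping ranges. Slc1a3 then stood at 36.4, above Emx2 at 22.3.

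**Figure D1:**
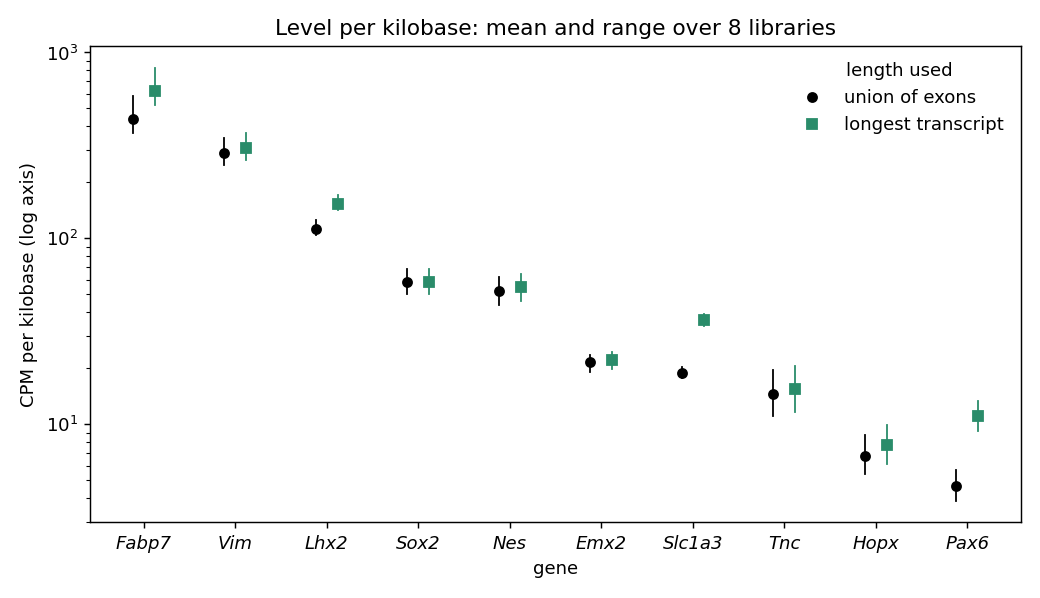
CPM per kilobase of each gene (log axis), with the mean (symbol) and the range over the 8 libraries (line), for the union of exons (circles) and the longest transcript (squares). Fabp7, Vim and Lhx2 lead under both lengths, and Pax6 and Slc1a3 move most, Pax6 from 4.69 to 11.1.

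Among the transcription factors, Pax6, which drives the progression from radial glia to intermediate progenitors and neurons, lies on chromosome 2 from 105509053 to 105543317 (plus strand, NCBIM37, which is mm9). It had 112, 92.5, 104 and 97.8 CPM in WT replicates 1 to 4 and 77.2, 79.3, 85.4 and 95.5 CPM in ErbB4-/- replicates 1 to 4. ErbB4-/- replicates 1 to 3 were below every WT library, and ErbB4-/- replicate 4 lay between WT replicates 2 and 4. The means were 102 ± 8.51 and 84.4 ± 8.22 CPM (SD, n = 4 each). The log2 fold change was -0.27 (SE 0.081, 95% interval -0.45 to -0.09), with an unadjusted p of 0.00626, an adjusted p of 0.81 from edgeR and a p of 0.0571 from the exact two-sided permutation test, which cannot go below 0.0286 here. Pax6 ranked 102 by p among all genes tested. The reads could not be assigned to a strand, and 5542 nucleotides of the union of Pax6 exons also lie in exons of Elp4 on the other strand, so Pax6 counts depend on how shared reads were counted. With Xist as a covariate the log2 fold change was -0.22 (unadjusted p of 0.134), and with each library's trend with gene length removed it was -0.42 (unadjusted p of 0.0137). That trend took the union of exons as gene length, for Pax6 19833 nucleotides where its longest transcript has 8401, so this value depends on the length used.

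Sox2, a factor that maintains the stem cell state, is a gene of a single exon on chromosome 3 (34548927 to 34551383, plus strand). It had 168, 135, 158 and 140 CPM in WT and 147, 135, 124 and 146 CPM in ErbB4-/-. The groups overlapped, with the highest levels in WT replicates 1 and 3. Its log2 fold change was -0.12 (SE 0.079, 95% interval -0.30 to 0.05). It was -0.07 without WT replicate 1, -0.08 without ErbB4-/- replicate 3 and -0.03 with Xist as a covariate. Sox2 lies within Sox2ot, a noncoding transcript of the same strand with which it shares no exon bases.

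Emx2, which patterns the cortex along its axes, lies on chromosome 19 (59533180 to 59539847, plus strand). Its levels were 56.9, 59.6, 61.4 and 63.3 CPM in WT and 55.7, 51.5, 53.9 and 60.2 CPM in ErbB4-/-. ErbB4-/- replicates 1 to 3 were below all WT libraries and replicate 4 was within them. Emx2 had a log2 fold change of -0.12 (SE 0.065, 95% interval -0.27 to 0.02), and of -0.19 with Xist as a covariate.

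Lhx2, a selector gene for cortical identity that lies on chromosome 2 (38194801 to 38225253, plus strand), was the most abundant of these 4 factors per length. It had 360, 330, 352 and 392 CPM in WT and 326, 326, 357 and 370 CPM in ErbB4-/-. Apart from ErbB4-/- replicates 1 and 2, which were just below the lowest WT library, the groups overlapped. The log2 fold change was -0.06 (SE 0.066, 95% interval -0.20 to 0.09). With each library left out it was -0.10 to -0.01, the latter without WT replicate 4, and with Xist as a covariate it was -0.19.

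**Figure D2:**
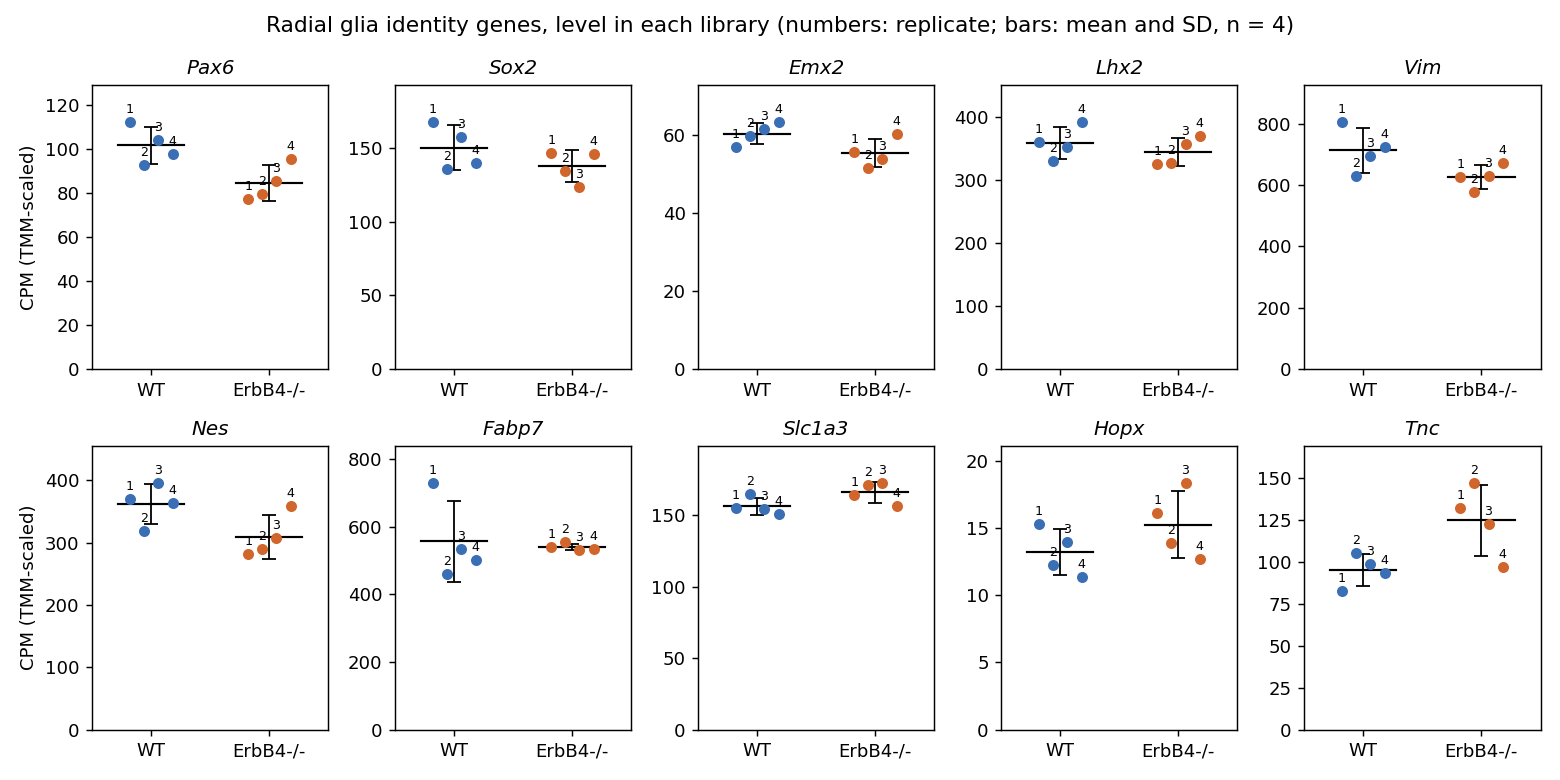
Level of each radial glia identity gene in each library, as TMM-scaled CPM on axes that start at 0, with the replicate number above each point and the mean and SD of 4 libraries as lines. The groups overlap for every gene, and for Pax6, Nes and Tnc the ErbB4-/- library nearest to WT is replicate 4.

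Of the intermediate filament genes, Vim, which encodes vimentin, lies on chromosome 2 (13495554 to 13504453, plus strand). Its levels were 807, 630, 695 and 726 CPM in WT and 628, 578, 631 and 672 CPM in ErbB4-/-. WT replicate 1 was the highest of all libraries, and 2 ErbB4-/- libraries were below the lowest WT library. The means were 714 ± 73.4 and 627 ± 38.6 CPM (SD, n = 4 each). Vim had a log2 fold change of -0.19 (SE 0.076, 95% interval -0.36 to -0.02), with an unadjusted p of 0.0303, an adjusted p of 0.81 from edgeR and an exact permutation p of 0.0857. Without WT replicate 1 its log2 fold change was -0.12 (unadjusted p of 0.0565), and with Xist as a covariate it was -0.23 (unadjusted p of 0.0936).

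Nes, which encodes nestin, the filament protein used most widely to mark neural stem cells, lies on chromosome 3 (87775000 to 87784373, plus strand). It had 370, 318, 396 and 363 CPM in WT and 282, 289, 307 and 359 CPM in ErbB4-/-. As with Pax6, ErbB4-/- replicates 1 to 3 lay below every WT library and ErbB4-/- replicate 4 lay among them. The means were 362 ± 32.4 and 309 ± 35.0 CPM (SD, n = 4 each). The log2 fold change was -0.23 (SE 0.086, 95% interval -0.41 to -0.04), with an unadjusted p of 0.0229, an adjusted p of 0.81 from edgeR and an exact permutation p of 0.0571. With Xist as a covariate the value was also -0.23, with an unadjusted p of 0.14.

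Fabp7, a brain fatty acid binding protein of radial glia, lies on chromosome 10 (57504687 to 57508256, plus strand). It had 730, 460, 533 and 503 CPM in WT and 540, 553, 532 and 533 CPM in ErbB4-/-. The ErbB4-/- libraries were nearly level, with a coefficient of variation of 1.84%, whereas in WT it was 21.5% and replicate 1 was far above the others. The log2 fold change was -0.04 (SE 0.12, 95% interval -0.30 to 0.21), and its direction depended on the setting. Without that library it was 0.11 (unadjusted p of 0.0408), without WT replicate 2 or 4 it was -0.12 or -0.09, with Xist as a covariate it was 0.07, and with the trend with gene length removed it was 0.01. Fabp7 has the shortest exon union of the 10 members, 1250 nucleotides.

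Slc1a3, the glutamate transporter GLAST, lies on chromosome 15 (8584124 to 8660764, minus strand). Its levels were 155, 165, 155 and 151 CPM in WT and 165, 171, 173 and 156 CPM in ErbB4-/-. The spread within groups was small, and ErbB4-/- replicates 2 and 3 were above every WT library. Slc1a3 had a log2 fold change of 0.09 (SE 0.052, 95% interval -0.03 to 0.20). It was 0.02 with the trend with gene length removed and 0.14 with Xist as a covariate.

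Hopx, a homeodomain-only protein gene that marks basal radial glia in primates, lies on chromosome 5 (77515468 to 77544186, minus strand) and was the least read member, with 382 to 792 reads per library. It had 15.3, 12.3, 13.9 and 11.4 CPM in WT and 16.1, 13.9, 18.4 and 12.7 CPM in ErbB4-/-. ErbB4-/- replicates 1 and 3 were above all WT libraries and the others were within them. The log2 fold change was 0.21 (SE 0.13, 95% interval -0.07 to 0.49). The highest library, ErbB4-/- replicate 3, also stood out in the list of choroid plexus and cortical hem genes. The list summed to 634 CPM there, against 12.4 to 38.4 CPM in the other 7 libraries. Of the 634 CPM, the choroid plexus gene Ttr alone made 572. The part of the list's cells in the Hopx level was not tested. Without that library the log2 fold change of Hopx was 0.11, and with Xist as a covariate it was 0.40 (unadjusted p of 0.088). Of the union of Hopx exons, 410 nucleotides also lie in exons of Gm15830 on the other strand. Gm15830 is not among the gene symbols counted, so reads from it there could not be told from Hopx reads.

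Tnc, the extracellular matrix protein tenascin-C, which in the developing brain is made by radial glia and later by astrocytes, lies on chromosome 4 (63620819 to 63681760, minus strand). It had 82.9, 106, 99.0 and 93.2 CPM in WT and 132, 147, 123 and 96.7 CPM in ErbB4-/-. ErbB4-/- replicates 1 to 3 were above every WT library, and ErbB4-/- replicate 4 lay between WT replicates 3 and 4. The means were 95.1 ± 9.62 and 125 ± 21.2 CPM (SD, n = 4 each). The log2 fold change was 0.39 (SE 0.11, 95% interval 0.14 to 0.64), with an unadjusted p of 0.00549, an adjusted p of 0.81 from edgeR and an exact permutation p of 0.0857. Of the union of Tnc exons, 176 nucleotides also lie in exons of 8030451A03Rik, on the other strand and not among the gene symbols counted. Tnc ranked 92 by p among all genes tested. With Xist as a covariate its log2 fold change was 0.43 (unadjusted p of 0.0517). It had the lowest adjusted p of any member under any setting, 0.175 without ErbB4-/- replicate 4, where its log2 fold change was 0.49. As scale, Wdfy1, the gene with the smallest p, had a log2 fold change of 2.34.

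**Figure D3:**
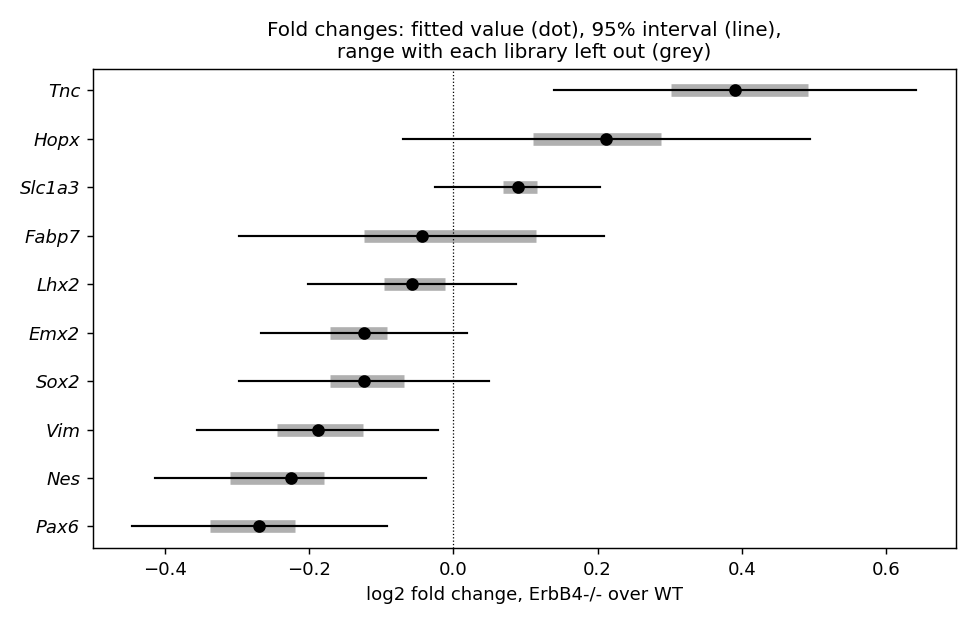
Log2 fold change of ErbB4-/- over WT for each gene, with the fitted value (dot), its 95% interval (line) and the range when each library in turn is left out (grey bar). The intervals of Pax6, Nes, Vim and Tnc do not include 0, and the grey bar of Fabp7 crosses 0, from -0.12 to 0.11.

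The members differed in direction across libraries. Averaged over the 10 genes, the deviation of log2 CPM from each gene's mean was 0.11, -0.07, 0.05 and -0.01 in WT replicates 1 to 4 and -0.02, -0.05, 0.00 and -0.01 in ErbB4-/- replicates 1 to 4. WT replicate 1 was the highest, and the averages of the groups overlapped. Pax6, Nes and Vim had a higher mean deviation in WT and Tnc a higher one in ErbB4-/-, although in WT replicate 2 Nes, Vim and Tnc were all below their means. The ratio of Tnc to Pax6 CPM was 0.738, 1.14, 0.952 and 0.953 in WT and 1.71, 1.86, 1.44 and 1.01 in ErbB4-/-. In ErbB4-/- replicates 1 to 3 the ratio was above every WT library, and in replicate 4 it was below WT replicate 2. The ratio of Slc1a3 to Nes ranged from 0.39 to 0.518 in WT and was 0.584, 0.591, 0.563 and 0.436 in ErbB4-/-, again with replicate 4 within the WT range. Both pairs were picked from the members' own values, so the ratios are a description only.

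**Figure D4:**
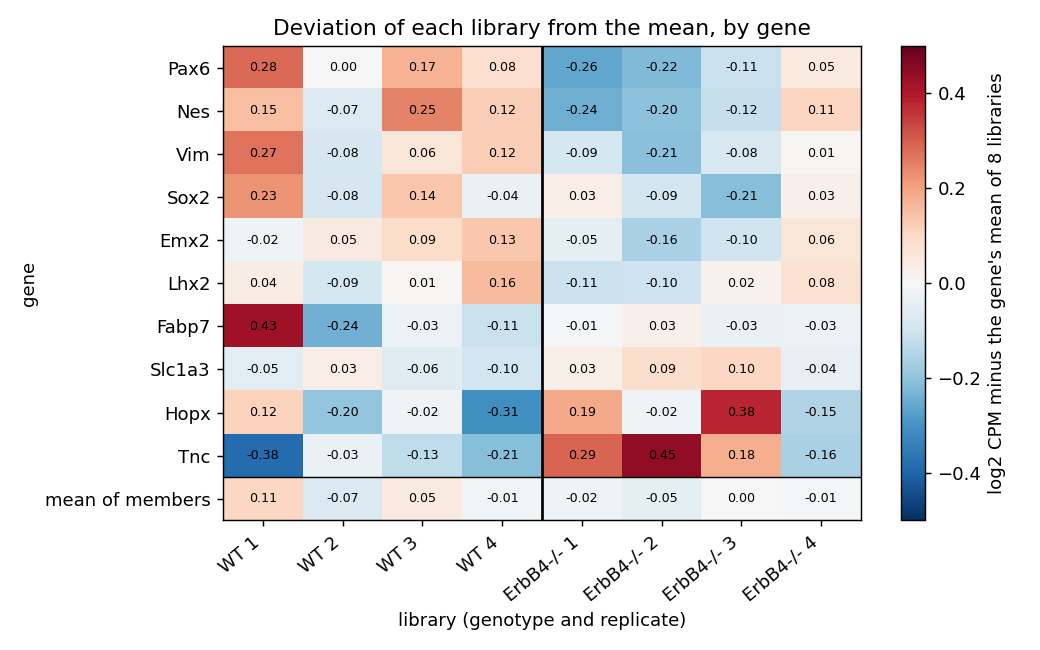
Deviation of log2 CPM from each gene's mean over the 8 libraries, for each member (rows) and library (columns), with the mean of the 10 members in the last row. Pax6, Nes and Vim are below their means and Tnc above in ErbB4-/- replicates 1 to 3, and the last row stays between -0.07 and 0.11.

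The 5 genes outside the list whose profile over the 8 libraries was nearest to the members' mean profile were Lix1l, Immt, Actr3, Stk38 and Ei24. Their root-mean-square differences from it were 0.0166 to 0.0195 on the log2 scale, where the median gene was at 0.139. The mean profile itself varied little, with an SD of 0.055, so nearness to it mostly picks genes that varied little too.

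Other gene lists of the tissue put these values in context, and none of their genes passed the test at an adjusted p under 0.05. Their counts stand beside the shares of all genes tested, 50.8% below 0, 2.52% lower at an unadjusted p under 0.05 and 3.00% higher. Among 30 other radial glia and ventricular zone genes, 23 log2 fold changes were below 0, with a median of -0.07, and 4 had an unadjusted p under 0.05, all lower. Hes1, a Notch target that keeps progenitors undifferentiated, was at a log2 fold change of -0.24 (SE 0.091). Id4, an inhibitor of bHLH factors, was at -0.22 (SE 0.088). The median of this list was -0.05 without WT replicate 3, -0.11 without ErbB4-/- replicate 4 and -0.11 with Xist as a covariate. Of 8 basal radial glia genes, 7 log2 fold changes were above 0, with a median of 0.13, but none had an unadjusted p under 0.05. Il6st, the shared receptor chain of the LIF family, was at 0.13 (SE 0.074), and Itgb5, an integrin subunit, at 0.14 (SE 0.092). With Xist as a covariate the median was 0.20, Il6st was at 0.25 and Itgb5 at 0.35. Without WT replicate 3 Il6st was at 0.19, and without WT replicate 4 Itgb5 was at 0.08.

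Cell cycle genes had all 20 log2 fold changes below 0, with a median of -0.19, and 4 had an unadjusted p under 0.05. Ccnd1, the cyclin of G1 phase, was at 85.8 ± 1.89 CPM in WT and 73.8 ± 7.14 CPM in ErbB4-/- (SD, n = 4 each), and its log2 fold change from edgeR was -0.22 (adjusted p = 0.81). Its level was 87.4, 85.1, 83.4 and 87.2 CPM in the WT libraries and 72.3, 70.5, 68.2 and 84.2 CPM in the ErbB4-/- libraries. The groups overlapped, since ErbB4-/- replicate 4 was above WT replicate 3. Plk1, a mitotic kinase, had a log2 fold change of -0.20. The summed level of the cell cycle list was 2329 to 2951 CPM in WT and 2211 to 2815 CPM in ErbB4-/-, with ErbB4-/- replicate 4 the highest of its group.

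Intermediate progenitor genes, which are switched on as radial glia give rise to neurogenic daughters, had 12 of 13 log2 fold changes below 0, with a median of -0.14 (-0.21 with Xist as a covariate), and 3 had an unadjusted p under 0.05. Neurog2, a proneural factor downstream of Pax6, had 203 ± 27.6 CPM in WT and 159 ± 23.0 CPM in ErbB4-/- (SD, n = 4 each), a log2 fold change of -0.35 (SE 0.11). Neurog1, its close relative, had a log2 fold change of -0.64 (SE 0.19). Eomes (Tbr2), the defining gene of these cells, had 277 ± 19.0 and 253 ± 30.0 CPM, a log2 fold change of -0.13 (SE 0.083). The ratio of Pax6 to Eomes was 0.334 to 0.393 in WT and 0.322 to 0.342 in ErbB4-/-.

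Of 10 astrocyte genes that could be tested, 7 log2 fold changes were above 0, with a median of 0.23 (0.13 without WT replicate 3), and 4 had an unadjusted p under 0.05, all higher. Gfap, the astrocyte filament, was read at 0.571 to 0.93 CPM in WT and had 1.89, 2.07, 1.23 and 0.858 CPM in ErbB4-/-, so that its log2 fold change was 1.04 (SE 0.30) with an adjusted p of 0.81 from edgeR. Slc4a4, a bicarbonate transporter, had a log2 fold change of 0.48. Oligodendrocyte lineage genes had 7 of 7 log2 fold changes above 0, with a median of 0.24, and 3 had an unadjusted p under 0.05. Among these, Sox10, a factor of the lineage, was at 0.61 (SE 0.19), and at 1.09 with Xist as a covariate. In cortical neuron genes, 15 of 19 log2 fold changes were above 0 with a median of 0.02 (0.01 to 0.05 with each library left out), and 2 had an unadjusted p under 0.05, among them Snap25, a synaptic vesicle fusion protein, at 0.16 (0.24 with Xist as a covariate, 0.10 with the trend with gene length removed).

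**Figure D5:**
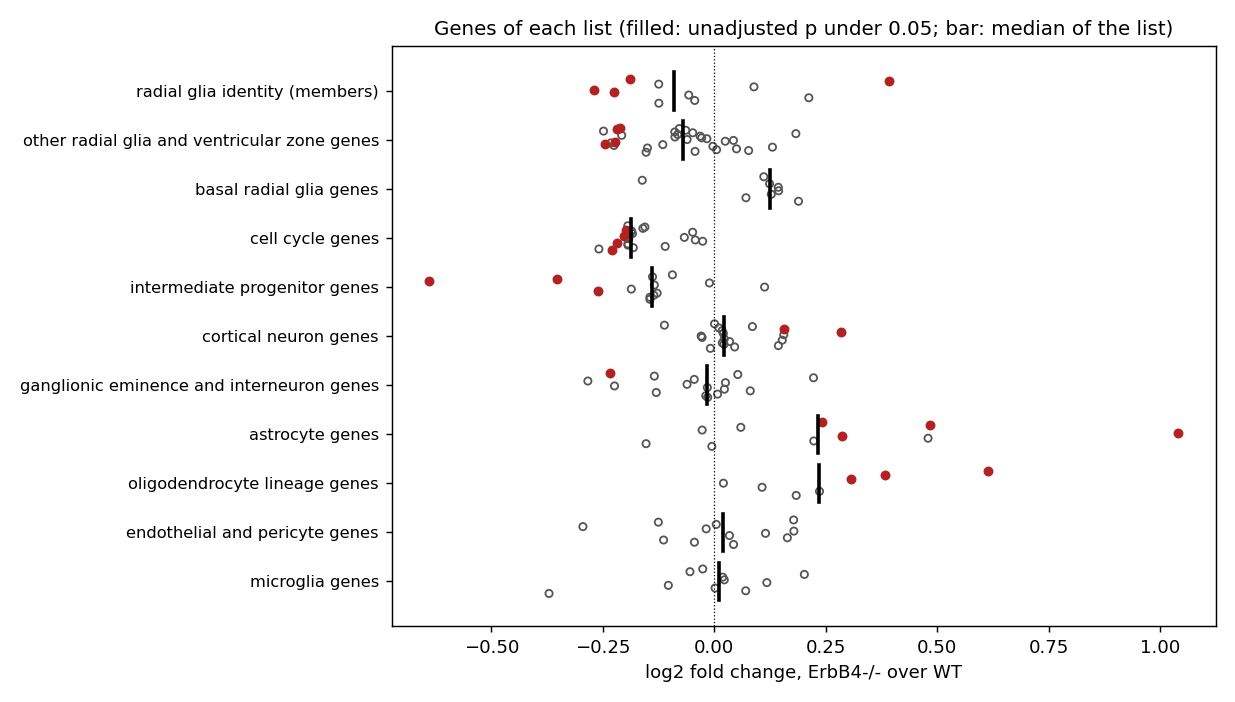
Log2 fold change of ErbB4-/- over WT of each tested gene in the members and 10 other lists, filled where the unadjusted p was under 0.05, with the median of each list as a bar. All 20 cell cycle genes lie below 0 and all 7 oligodendrocyte lineage genes above 0, and the lists of meningeal, choroid plexus and red blood cell genes are not drawn.

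The ganglionic eminence and interneuron list was not at 0 although that tissue had been removed. Its summed level was 725 to 958 CPM in WT and 711 to 958 CPM in ErbB4-/-. The median log2 fold change of the list was -0.02 (-0.10 to 0.05 with each library left out, 0.24 with Xist as a covariate). Sst and Npy, a pair of interneuron neuropeptides, had log2 fold changes of -0.23 and 0.22. Sst was at -0.15 without WT replicate 1. Npy was at 0.12 without WT replicate 4 or ErbB4-/- replicate 2, at 0.36 without ErbB4-/- replicate 4 and at 0.57 with Xist as a covariate. Summed levels in WT and ErbB4-/- were 232 to 247 and 233 to 246 CPM for endothelial and pericyte genes, 64.7 to 77.9 and 66.6 to 76.2 CPM for microglia genes, and 17.7 to 23.5 and 18.8 to 26.8 CPM for meningeal fibroblast genes. In these lists 0, 0 and 2 genes had an unadjusted p under 0.05. The 2 meningeal genes were Ptgds, a prostaglandin synthase, at a log2 fold change of 0.72 (0.48 without ErbB4-/- replicate 3), and Crabp2, which binds retinoic acid, at -0.64 (-0.15 with Xist as a covariate). Red blood cell genes summed to 33.2 to 58.1 CPM in WT and 23.2 to 36.7 CPM in ErbB4-/-, with the embryonic globins Hba-x and Hbb-y at log2 fold changes of -1.23 and -1.72 (-0.77 for Hbb-y with Xist as a covariate), and 3 of that list's 10 genes were at 0 in all libraries. The choroid plexus genes Ttr and Folr1, at log2 fold changes of 4.82 and 2.76, were high in ErbB4-/- replicate 3 only, and without it their values were -0.29 and -0.23. The part of these cells in the members' levels was not tested.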

How the data were processed

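Per the methods of the study, non-strand-specific polyA-selected libraries were sequenced as single-end reads of 50 nucleotides, mapped to mm9 with HISAT and counted with HTSeq-count. Tool versions and the gene annotation are not given in the sources used here. The deposited files hold raw counts per gene symbol, 1 file per library, with no normalization. A deposited table of the authors' DESeq2 comparison (fold changes and p-values) was not used.

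In R 4.3.3, edgeR 4.0.16 was run on the counts with TMM scaling and its filterByExpr filter (at least 10 counts, at least 15 in total). The quasi-likelihood F test was adjusted by Benjamini-Hochberg over 14696 genes, with a threshold of 0.05. The common biological coefficient of variation was 10.7%. Values per library are CPM after TMM scaling, and log2 CPM has a prior count of 2. Exact two-sided permutation tests ran over the 70 assignments of 8 libraries. Counting error is part of the fitted model. Exons and positions came from GENCODE on NCBIM37, and promoters from RefSeq on GRCm38.p6, whose coordinates differ from mm9. All 10 members matched both. The steps were tested on simulated data. Figures were drawn with matplotlib 3.10.9.

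The members and all 13 other gene lists were chosen with earlier results of these data known. Named genes are the members, Erbb4, the 2 genes of each other list with the smallest p, the 5 nearest in profile and the gene with the smallest p over all. Eomes, Xist and Ddx3y were named outside this rule, after their values were seen, and some genes that the rule names are not reported here. Alternatives were DESeq2 1.42.0, limma-voom (limma 3.58.1), other scalings, filters and thresholds, a block of replicate numbers, a covariate of log2 Xist CPM, removal of the trend with gene length, the longest transcript as gene length, each library left out and, added after the data were seen, only the 5 libraries with low Xist, 1 of them WT.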

Additional observations from a re-analysis of the deposited data

How the results depend on the processing

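No member had an adjusted p under 0.05 under any of 19 alternative settings, and 186 of their 190 log2 fold changes kept the direction. The exceptions were all of Fabp7, at 0.0695 with Xist as a covariate, 0.0135 with the trend with gene length removed, 0.114 without WT replicate 1 (where leaving out each library gave -0.125 to 0.114) and 0.103 in the 5 libraries with low Xist. That alternative was chosen after seeing the data and sets 1 WT library against 4 ErbB4-/- libraries, so the lone library is assumed to vary like the other group. The number of members with an unadjusted p under 0.05 was 4 as reported. With Xist as a covariate, a fit where WT replicate 4 alone separates Xist from genotype, it was 0. Leaving out each library gave 2 to 6, at 2 without ErbB4-/- replicate 1 or 2. Without WT replicate 1 it was 6, and with ErbB4-/- replicate 4 left out it was 5. The cause was not tested.

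Over all genes, 4 passed the threshold. That count was 23 with DESeq2, 1 at a threshold of 0.01, 1 with relative log expression or upper-quartile scaling, 1 with Xist as a covariate, 1 in the 5 low-Xist libraries (1 of them WT) and 1 to 13 with each library left out, at 13 without WT replicate 4. Of the other lists, 1 gene (Hba-x) passed without ErbB4-/- replicate 4, and 0 to 1 over all such settings. The microglia gene Csf1r, at 0.12 in edgeR's test (unadjusted p of 0.187), turned to -0.0183 with Xist as a covariate and to -0.0147 in the low-Xist libraries, and Ttr and Folr1 to -0.29 and -0.23 without ErbB4-/- replicate 3, while leaving out each library in turn gave up to 5.23 and 3.25.

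Same-numbered libraries of the 2 genotypes correlated in their deviations at 0.0837, 0.135, 0.0476 and 0.0236. Differently numbered ones correlated at -0.187 to 0.154, and the numbers were not used as pairs. With the replicate block, 1 gene of all passed and none of the members, and the log2 fold changes of Pax6 and Tnc were -0.27 and 0.38. In that fit 5 members had an unadjusted p under 0.05, against 4 without the block. Each member had at least 382 reads in every library, and 4 libraries against 4 allow no permutation p under 0.0286.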
